A study of Arabidopsis thaliana with 4 samples.

Results

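Stress-only regions are stretches of the Arabidopsis genome in which an H3K4me3 peak was present in both libraries of osmotically stressed root tips and in neither control library. Peaks of the 4 libraries on chromosomes 1 to 5 were merged where they overlapped by at least 1 bp, which gave 16070 regions, and 1324 of them (8.24% of all regions) met this rule. The regions were chosen by the peak calls themselves, and the 50 past a fold enrichment of 4 by that value, so that the peak strengths given here describe the choice and are no test of it. Regions with the reverse pattern, a peak in both control libraries and in no stress library, numbered 71 (0.442%), and 11925 regions (74.2%) had a peak in all 4 libraries. With every peak scaled to the depth of the smallest library, the counts were 751 stress-only and 189 control-only regions. Leaving out 1 library at a time gave 1497 to 2353 stress-only regions, the most without control replicate 1 and 2289 without stress replicate 1, and 95 to 227 control-only regions, the most without control replicate 2. Each omission removes a condition of the rule, so these counts could not fall. A further 1188 regions were found in both stress libraries and in 1 control library, and 941 in stress replicate 2 alone.

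The stress group was Col-0 under osmotic stress and the control group was Col-0 without it, with 2 CUT&Tag libraries each. The study's methods describe its plants as grown for 10 days on 1/2MS with 250 mM sorbitol or on 1/2MS alone, and the labels of these libraries state neither the dose nor the time. The labels give root as the tissue and histone H3K4 methylation as the target, and the study's methods describe root tips and name H3K4me3. CUT&Tag uses an antibody to tether a transposase next to a chromatin mark, so that fragments around the mark are released and sequenced, here from whole root tips in which all cell types are mixed. A stronger signal in more cells cannot be told apart from more signal per cell in such a bulk sample. The stress libraries held 15974955 and 25714827 fragments, against 9011630 and 6396842 in the control libraries, so depth and condition cannot be told apart. Among markers of plant organs, 1 of 12 root markers (RHD6) and 1 of 48 photosynthetic markers (CAB1) lay at a stress-only region, against 4.09% of all protein-coding genes. At regions in all 4 libraries lay 3 other root, 13 photosynthetic and 1 of 10 flower and seed markers, against 11142 of all 27444 protein-coding genes. These small counts are not read as a contrast between organs.

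H3K4me3 is placed by COMPASS-like methyltransferase complexes on nucleosomes at the 5′ end of genes, just downstream of the transcription start site (TSS), and is a mark of transcribed or transcribable genes. In plants, genes induced by dehydration, wounding or jasmonate are known to carry more of the mark when they are active. Jasmonate acts by the degradation of JAZ proteins, which otherwise repress MYC transcription factors. MYC factors bind the G-box CACGTG, whereas DREB factors bind sequences around ACCGAC and WRKY factors the W-box with the core TTGAC.

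The promoters of 5 genes at stress-only regions are given for orientation, because their gene families recur in the results. JAZ10, JAZ7, LOX3 and RRTF1 belong to jasmonate and stress signalling, and their mean stress signal was above the median of stress-only regions. Of these genes, only JAZ10 was above the median of the regions in all 4 libraries. LTI78 (also known as RD29A) is a classical dehydration gene with a signal below the median of stress-only regions. Each stretch runs 5′ to 3′ on the strand of the gene, from 250 bases before the TSS to 50 bases from the TSS onwards, and was read from the RefSeq TAIR10.1 genome. Capitals mark motifs searched on both strands: TATAAA and AAAATATCT in JAZ10, CACGTG and the overlapping ACGTGT in JAZ7 and RRTF1, ACGTGT in LOX3 and ACCGAC in LTI78. Other matches in these windows are left in lower case.
JAZ10 (AT5G13220, chr5:4218536-4218835, plus strand): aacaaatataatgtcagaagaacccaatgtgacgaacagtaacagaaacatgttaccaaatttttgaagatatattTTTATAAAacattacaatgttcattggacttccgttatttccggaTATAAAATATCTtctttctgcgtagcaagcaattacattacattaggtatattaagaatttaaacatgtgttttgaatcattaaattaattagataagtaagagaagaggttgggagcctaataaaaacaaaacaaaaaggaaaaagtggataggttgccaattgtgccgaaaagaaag
JAZ7 (AT2G34600, chr2:14572780-14573079, plus strand): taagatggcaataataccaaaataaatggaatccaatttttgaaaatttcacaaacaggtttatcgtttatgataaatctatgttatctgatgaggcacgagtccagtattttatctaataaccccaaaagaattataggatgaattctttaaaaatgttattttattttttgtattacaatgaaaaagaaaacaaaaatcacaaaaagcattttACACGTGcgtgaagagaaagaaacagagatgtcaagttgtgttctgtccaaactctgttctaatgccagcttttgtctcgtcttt
LOX3 (AT1G17420, chr1:5977073-5977372, plus strand): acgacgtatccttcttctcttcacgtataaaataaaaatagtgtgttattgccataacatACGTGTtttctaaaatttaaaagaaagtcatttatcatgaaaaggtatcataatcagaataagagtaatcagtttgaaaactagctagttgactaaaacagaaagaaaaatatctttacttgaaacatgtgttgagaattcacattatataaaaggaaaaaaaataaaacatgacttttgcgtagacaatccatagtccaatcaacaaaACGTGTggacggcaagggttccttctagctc
RRTF1 (AT4G34410, chr4:16451626-16451925, plus strand): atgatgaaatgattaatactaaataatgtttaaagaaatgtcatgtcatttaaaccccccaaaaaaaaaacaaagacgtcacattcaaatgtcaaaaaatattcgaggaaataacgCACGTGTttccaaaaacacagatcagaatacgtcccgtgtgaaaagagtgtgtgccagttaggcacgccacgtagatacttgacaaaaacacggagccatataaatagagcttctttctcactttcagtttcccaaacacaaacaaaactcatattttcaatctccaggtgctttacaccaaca
LTI78 (AT5G52310, chr5:21240467-21240766, plus strand): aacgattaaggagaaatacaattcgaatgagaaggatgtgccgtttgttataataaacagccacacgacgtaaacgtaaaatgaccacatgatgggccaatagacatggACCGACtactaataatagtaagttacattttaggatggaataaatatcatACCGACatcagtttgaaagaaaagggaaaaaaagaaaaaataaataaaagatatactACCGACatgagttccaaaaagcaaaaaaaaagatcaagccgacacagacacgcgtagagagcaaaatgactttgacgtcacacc

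Stress-only regions were weak and short peaks that mostly sat where H3K4me3 is normally found. The signal of a peak is given here as the height of its stack of fragments at the summit per 1000000 fragments of the library (FPM), and the fold enrichment is the authors' ratio of that stack to the local background of the same library. The median signal of the 1324 regions was 6.42 FPM in stress replicate 1 and 6.11 in stress replicate 2, against 13.2 and 12.4 at the regions found in all 4 libraries. The median fold enrichment was 2.39 and 2.47 in the stress replicates, against 4.21 and 4.33 at the regions found in all 4 libraries. Only 45 stress-only regions had a mean stress signal above the median of the regions in all 4 libraries, 12.8 FPM. The median length was 630 bp (quartiles 484 to 846 bp), against 1193 bp for regions in all 4 libraries and 456 bp for control-only regions. Regions in both stress libraries and 1 control library lay between, with a median length of 736 bp and a median stress signal of 7.39 and 6.96 FPM, while regions in stress replicate 2 alone measured 362 bp and 3.85 FPM. Because regions and not samples are counted here, these differences were not tested.

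The 2 stress libraries gave like values at the same places. Across the 1324 regions, which share both libraries and are not independent replicates, the log2 signal of the stress replicates correlated at a Pearson coefficient of 0.970 and the log2 fold enrichment at 0.875. The signal in FPM was higher in stress replicate 1 at 868 regions (65.6%), with a median log2 difference of -0.08 (stress replicate 2 minus 1), against -0.10 over the regions in all 4 libraries. The summits of the stress replicates lay 76 bp apart at the median, and within 150 bp of each other at 73.1% of the regions. Both fold enrichments were at least 2 at 971 regions (73.3%), at least 3 at 217 (16.4%) and at least 4 at 50 (0.311% of all 16070 regions).

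**Figure D1:**
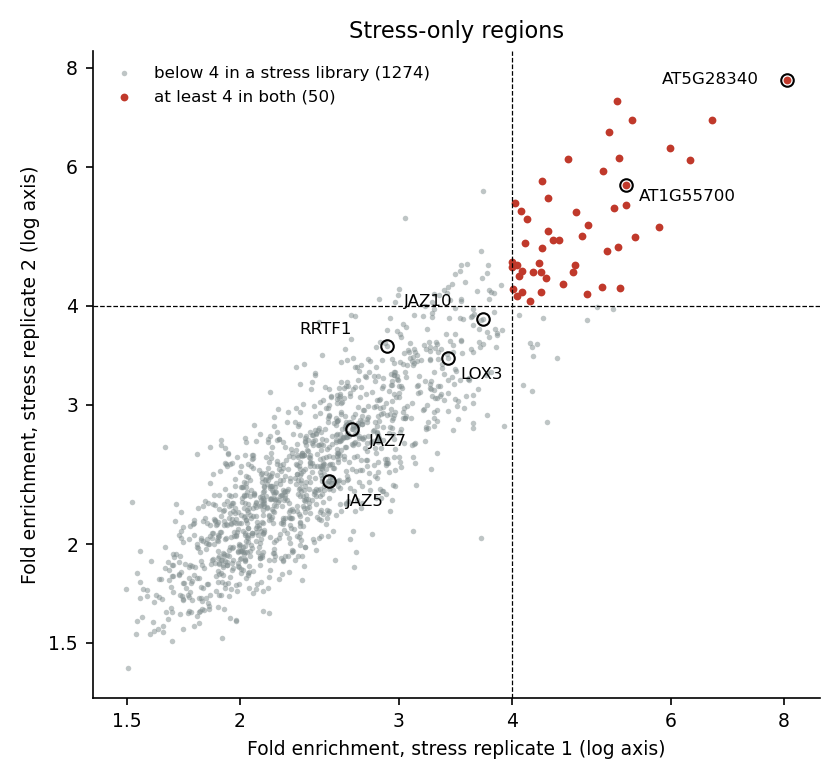
Fold enrichment of each of the 1324 stress-only regions in stress replicate 1 (x, log axis) and stress replicate 2 (y, log axis), with dashed lines at 4. The 50 regions with at least 4 in both libraries are red, 971 regions have at least 2 in both, and JAZ10 lies just below the lines at 3.72 and 3.85.

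Most stress-only regions lay at genes. The summit was within 1 kb of the TSS of a protein-coding gene at 1124 regions, or 84.9% (95% Wilson interval 82.9 to 86.7%, counting error only), against 93.6% of the regions in all 4 libraries, 86.8% of those in both stress libraries and 1 control library, and 62.0% of control-only regions. These regions were nearest to 1123 genes, 4.09% of the 27444 protein-coding genes. In all, 51.8% of protein-coding genes were nearest to a region of any kind, and 7.9% of those genes had a stress-only region. The summit was downstream of the TSS at 1004 and upstream of it at 119 of the 1124 regions, with a median position 248 bp downstream. At regions in all 4 libraries that were within 1 kb of a TSS, the median position was 246 bp downstream, so the place of the summit was alike among such regions. Over all regions, near a TSS or not, the median absolute distance was 329 bp at stress-only regions, against 266 bp at regions in all 4 libraries. The summit lay in a protein-coding gene body at 85.0%, against 92.8%, and no protein-coding TSS lay inside the region at 61.6%, against 19.1%. The region itself reached into the printed promoter window, 250 bases before to 50 after the TSS, at 689 of the 1124 regions (61.3%).

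**Figure D2:**
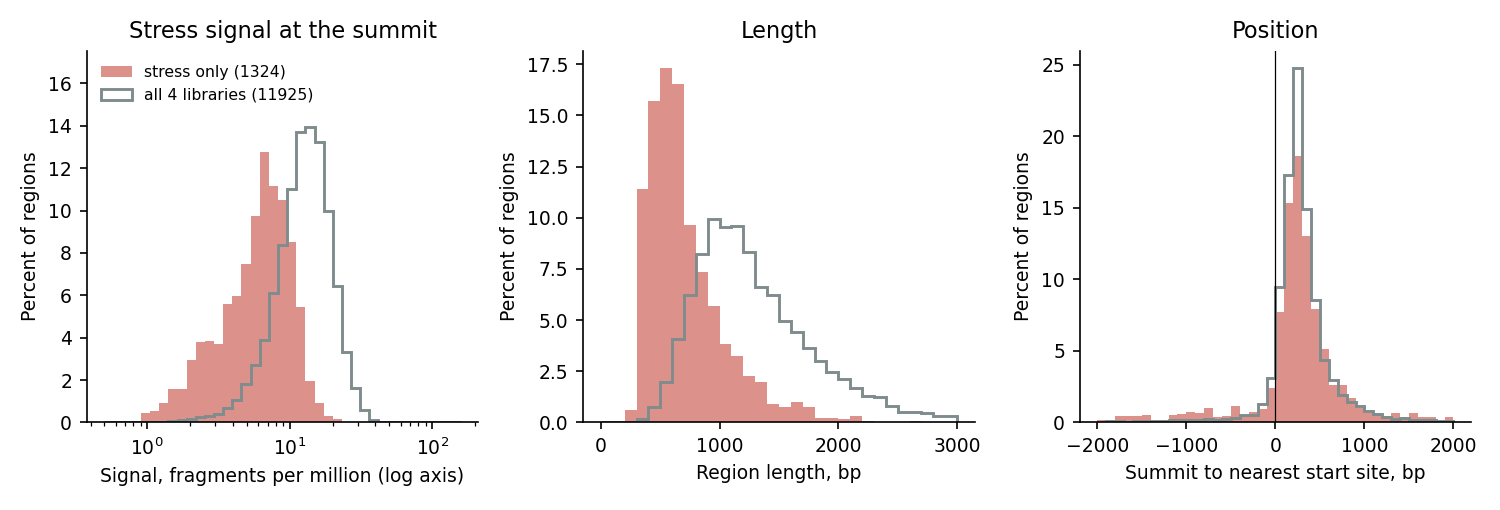
Percent of stress-only regions (red, 1324) and of regions in all 4 libraries (grey line, 11925) by mean stress signal at the summit (FPM, log axis), by region length (bp) and by the distance of the summit to the nearest protein-coding start site (bp, positive downstream). Stress-only regions are lower and shorter, with medians of 630 against 1193 bp. The summits of both kinds of region crowd just downstream of the start site, with medians of 248 and 246 bp among those within 1 kb of one.

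Genes at stress-only regions mostly had no control peak on the gene body, which the rule sets in part. It bars control peaks from the region itself, and the same share was not computed for other genes. Of the 1123 genes, 989 (88.1%) had no control peak on the gene body, and 134 (11.9%) carried a control peak elsewhere on the gene. An overlap of any length was counted, so such a peak may belong to a neighbouring gene. The nearest control peak was 2597 bp away at the median and 45 bp at the least, with 179 regions (13.5%) having one within 1 kb and 55 within 500 bp. PCL1 (AT3G46640, also known as LUX), a component of the circadian evening complex, had a stress-only region 136 bp from a control peak on the same gene. The other 200 stress-only regions were further than 1 kb from a protein-coding TSS. Among them, 92 had the summit inside a protein-coding gene, 21 lay within 1 kb of the start of a long noncoding RNA, 11 of a transcribed pseudogene, 10 of another pseudogene and 2 of a miRNA gene. The miRNA genes were MIR157a, of the family that targets SPL transcription factors, with 2.94 and 2.72 FPM in the stress replicates, and MIR5641, with 2.13 and 1.83.

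Since the stress libraries were deeper, the signal that a control library could have shown as a peak was estimated for each region. The lowest callable signal is the smallest stack of fragments that reaches the authors' p cutoff when the scaled background is that of the stress libraries and the depth is that of the control library. Scaled to the depth of control replicate 1, 1038 of the 1324 regions (78.4%) were expected to be called from both stress libraries, and 720 (54.4%) at the depth of control replicate 2. These 720 were expected at both control depths, and 51 regions were expected at neither depth from either stress library. The mean stress signal was 1.06 times the higher of the 2 control limits at the median region, at least 1.5 times at 37 regions and at least 2 times at 2, AT1G55700 and JAZ10. The same scaling was applied to all peaks of a library, within a group: of the peaks of control replicate 1 expected at the depth of control replicate 2, 90.1% overlapped a peak there, and of those of stress replicate 2 expected at the depth of stress replicate 1, 93.1%. From stress to control, the shares were between 86.2% and 89.8%. Most of these peaks were stronger than those of stress-only regions. The median fold enrichment in stress replicate 1 was 3.85 over all regions, against 2.39 at stress-only regions. The error at peaks as weak as these was not measured and may be larger. Of the peaks not expected at the lower depth, 16.5% to 27.6% overlapped a peak there all the same, so the lowest callable signal is an estimate and no firm floor. The signal of a control library at a stress-only region is not known, only that no peak was called.

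A fold enrichment of at least 4 did not single out the regions with the strongest signal. The 50 regions past this value had a median signal of 2.19 and 1.85 FPM in the stress replicates, against 6.57 and 6.22 at the 1274 stress-only regions below it, and a median background of 0.407 and 0.366, against 2.81 and 2.61. Of the 50 regions, 34 were expected to be called at both control depths and 16 were not, while 686 regions below a fold enrichment of 4 were expected at both. They also lay in gene-poor stretches: 20 of the 50 (40%) had at most 15 protein-coding TSS within 50 kb, against 31 of 1274 (2.43%) of the other stress-only regions and 4.16% of the regions in all 4 libraries. The effective genome size in the authors' peak calling, larger than the Arabidopsis genome, enters the local background, and its part in these fold enrichments was not tested. The summits were within 1 kb of a protein-coding TSS at 68.0%, and of these 64.7% were downstream of it.

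**Figure D3:**
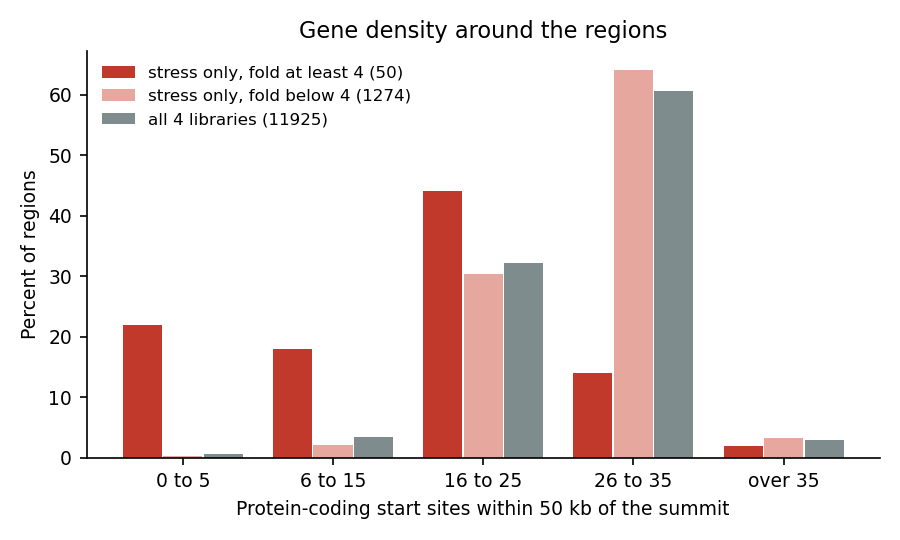
Percent of regions (y) by the number of protein-coding start sites within 50 kb of the summit (x), for the 50 stress-only regions with a fold enrichment of at least 4 in both stress libraries (red), the other 1274 (pale red) and the 11925 regions in all 4 libraries (grey). Of the 50, 22.0% had 0 to 5 start sites nearby, against 0.235% of the other stress-only regions.

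Near the value of 4, the members did not fall into separate kinds. Just inside it were AT3G44790, a TRAF-like gene, with 4.0 and 4.48, the MYB factor MYB79 with 4.01 and 4.20, and SQP2, a squalene monooxygenase, with 4.03 and 5.39. Just outside were AT1G63580, a receptor-like kinase relative, with 4.98 and 3.99, AT2G16005 with 4.07 and 3.89, and AT3G14510 with 4.34 and 3.86.

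The genes with the highest fold enrichment were of mixed kinds. AT5G28340, annotated as a tetratricopeptide-repeat gene, had the largest values, 8.06 and 7.72 in the stress replicates, at stacks of only 20 and 25 fragments. AT2G11205, annotated as reverse transcriptase-like, had 6.67 and 6.88, and the F-box gene AT3G44120 had 6.30 and 6.11. F-box genes, which encode substrate receptors of ubiquitin ligases, gave 3 of the 12 genes with the highest lower fold enrichment (AT3G44120, AT4G09870 and AT1G47915). The family was at stress-only regions for 18 of 652 genes (2.76%), against 4.09% of all protein-coding genes. Only 149 of the 652 were at a region of any kind, against 51.8% of all protein-coding genes. Among genes at any region, 18 of 149 F-box genes had a stress-only region, against 7.9% of all such genes. AGT, the peroxisomal alanine:glyoxylate aminotransferase, had 5.48 and 4.88, and MBP2, a myrosinase-binding protein, had 4.78 and 4.91. MBP2, AT3G30460 and AT2G10440 were not expected to be called at both control depths, whereas the other 9 of these 12 genes were. Small stacks were not limited to these genes: QQS, an orphan gene of starch metabolism, had 16 and 24 fragments, a signal of 1.0 and 0.933 FPM, against lowest callable signals of 0.999 and 1.25 in the control replicates. Over all 1324 regions the stack ranged between 13 and 358 fragments in stress replicate 1 and between 14 and 586 in stress replicate 2.

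By signal, the region at JAZ10 stood at 22.4 and 22.0 FPM in the stress replicates, against lowest callable signals of 9.54 and 10.3 in the control replicates. JAZ10 (AT5G13220) encodes a JAZ repressor that is itself induced by jasmonate and feeds back on the pathway. Its region, chr5:4218686-4220376, was 1691 bp long with the summit 868 bp downstream of the TSS, and the nearest control peak was 819 bp away, outside the gene. It covered 150 of the 300 bases of the promoter printed above and none of the capitals there. The stress signal was thus 2.15 times the higher control limit. AT4G32030, of unknown role, reached 21.0 and 22.8 FPM but at a fold enrichment of 1.61 and 1.69, just 1.10 times its higher control limit.

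Genes tied to jasmonate follow in the order of the pathway. Among genes of jasmonate synthesis and breakdown, 3 of 29 were at stress-only regions (10.3%, against 4.09% of all protein-coding genes), 18 were at regions in all 4 libraries, and all 3 were expected at both control depths. LOX3 and LOX4 encode 13-lipoxygenases, which start jasmonate synthesis in plastids. LOX3 had 11.0 and 11.2 FPM in the stress replicates, against control limits of 6.10 and 6.72, and LOX4 had 11.9 and 12.1, against 8.99 and 9.69. ACX6, of the acyl-CoA oxidase family, had 5.51 and 5.33, against 4.44 and 4.85. The region at LOX3 covered 244 bases of the printed promoter and both ACGTGT matches in it. LOX3 carried no control peak on the gene, whereas LOX4 did, near its downstream end and 2314 bp from the region. CYP94B2 of this list was at no region within 1 kb of the TSS. It was the nearest gene to a stress-only region with the summit 1367 bp downstream of the TSS. That region had 8.70 and 9.57 FPM in the stress replicates, against control limits of 7.99 and 8.75.

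JAZ repressors had the largest share of the lists counted, which was not tested. Of 12 genes, 4 (33.3%, against 4.09% of all protein-coding genes) were at stress-only regions, 6 at regions in all 4 libraries and 2 at no region. The 4 were all expected to be called at both control depths. Next to JAZ10, TIFY7 (JAZ9) had 9.14 and 8.63 FPM in the stress replicates, against control limits of 5.66 and 6.25. JAZ7 had 10.7 and 10.6, against 6.99 and 7.66, and JAZ5 had 7.26 and 6.42, against 5.44 and 5.94. The stress values of all 4 genes were above both control limits in both replicates, by the least at JAZ5. There a control peak 834 bp from the region overlapped the same gene at its downstream end. The summits of the 4 regions were 345 to 868 bp downstream of the TSS. Only JAZ7 among the printed JAZ promoters held a G-box, and its region, which began downstream of that window, did not cover it.

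**Figure D4:**
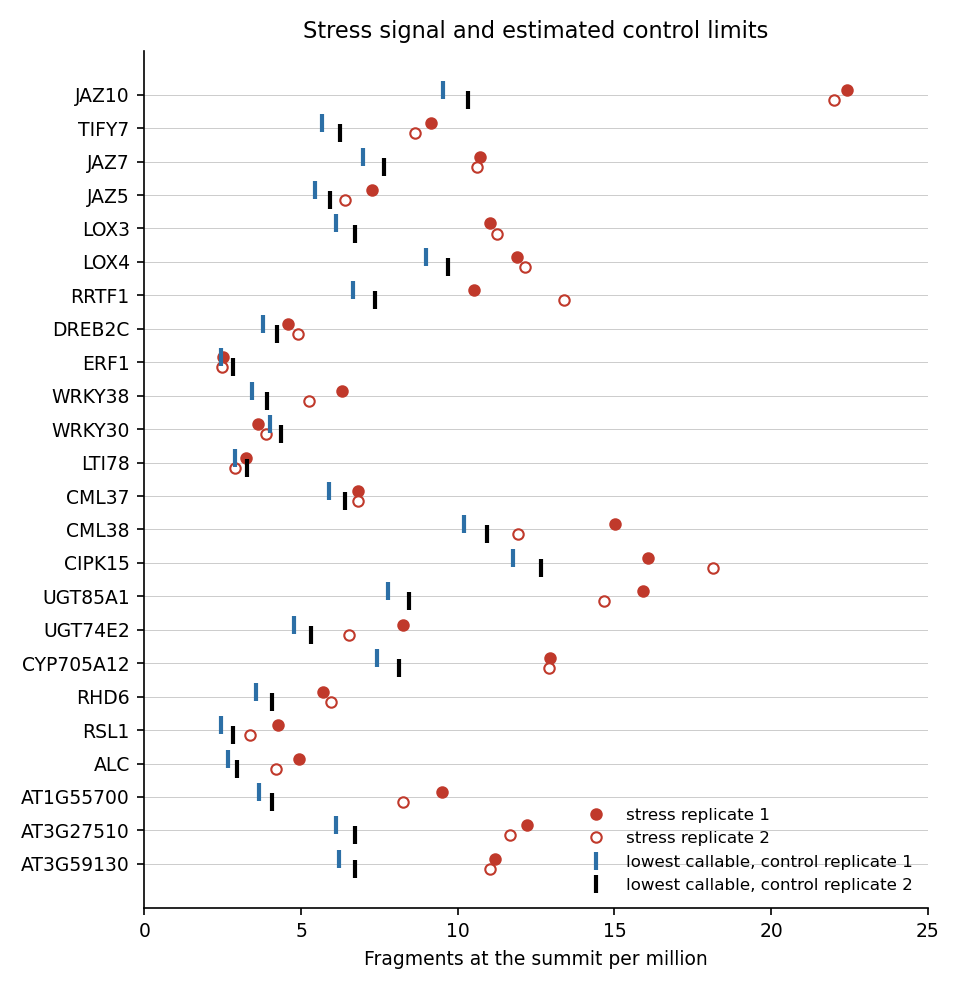
Signal at the summit in FPM (x) for 24 genes at stress-only regions (y), with stress replicate 1 as filled and stress replicate 2 as open circles, and the estimated lowest callable signal as bars for control replicate 1 (blue) and control replicate 2 (black). JAZ10 stands furthest right at 22.4 and 22.0 against limits of 9.54 and 10.3, while ERF1, WRKY30 and LTI78 lie near or below the limits.

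By number of genes, the transcription factor lists were led by the ERF and DREB family, whose members act in ethylene, jasmonate, cold and dehydration responses. By share, the small list of ZAT and AZF zinc fingers was higher, with 1 of 9 genes (11.1%). Of 132 genes, 12 (9.09%, against 4.09% of all protein-coding genes) were at stress-only regions and 53 at regions in all 4 libraries. At both control depths, 6 of the 12 were expected, against 652 of all 1123 genes at stress-only regions. RRTF1 (ERF109), a redox and wound-responsive factor, had 10.5 and 13.4 FPM in the stress replicates, against control limits of 6.66 and 7.35, with the summit 269 bp downstream of the TSS. Its region covered 252 of the 300 bases of the promoter printed above, the G-box at 134 bases before the TSS included. AT5G21960 had 7.20 and 7.04, against 5.1 and 5.63, and DREB2C, a factor of heat and drought responses, had 4.57 and 4.90, against 3.77 and 4.22. DDF1, a CBF relative, had 3.82 and 3.73, against 3.11 and 3.6, and CEJ1 had 5.45 and 7.39, against 4.99 and 5.47. ERF1 and ORA59, which join the ethylene and jasmonate pathways in defence, were near or below the limits, ERF1 with 2.50 and 2.49, against 2.44 and 2.81, and ORA59 with 3.13 and 3.77, against 3.22 and 3.75. TDR1, ABR1, AT1G12890 and ERF73 were likewise not expected at both control depths, whereas AT1G22190 was, with a control peak on the same gene 298 bp away.

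Of 72 WRKY genes, 5 (6.94%) were at stress-only regions, against 4.09% of all protein-coding genes. Of these 5, WRKY38 alone was expected at both control depths, with 6.32 and 5.25 FPM in the stress replicates, against control limits of 3.44 and 3.91. WRKY62, the close relative of WRKY38 in salicylate defence, had 2.94 and 2.92, against 2.77 and 3.13, and WRKY30 had 3.63 and 3.89, against 3.99 and 4.38. WRKY23, known from auxin responses in roots, and WRKY51 completed the list. A list of 125 genes annotated as bHLH by symbol or product, which leaves out bHLH genes named otherwise such as RHD6 and RSL1, had 5 (4.0%) at stress-only regions. This is near the 4.09% of all protein-coding genes, so the count is not read as a result about the family. ALC, AT2G22760, AT1G22490, EGL3 and bHLH39, the 5 genes, were expected at both control depths. ALC, best known from fruit opening, had 4.95 and 4.20, against 2.66 and 2.97. AT2G22760 had 5.63 and 8.32, against 4.22 and 4.69. EGL3, which acts in epidermal cell fate, had 6.07 and 5.25, against 4.22 and 4.69, and bHLH39 of the iron deficiency response had 7.20 and 7.0, against 6.21 and 6.88. NAC genes were at stress-only regions for 2 of 113 (1.77%), NAC3 and NAC060, R2R3 MYB genes for 4 of 125 (3.2%), and the ZAT and AZF zinc fingers for 1 of 9.

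RHD6, the 1 of 12 root markers at a stress-only region, and its paralogue RSL1 encode bHLH proteins that start root hair growth in trichoblasts. RHD6 (AT1G66470) had 5.70 and 5.95 FPM in the stress replicates, against control limits of 3.55 and 4.06, and RSL1 (AT5G37800) had 4.26 and 3.38, against 2.44 and 2.81. Both were expected at both control depths, and the nearest control peak was 8546 bp away for RHD6 and 15101 bp away for RSL1. RSL1 was named here after its values were seen, and no list of root hair genes was counted. Of the other epidermal genes among the root markers, GL2 and SHV2 were at no region, and MYB66 and PHT1;1 were at regions in all 4 libraries. PHT1;1 was also the nearest gene to a stress-only region beyond 1 kb, with the summit 2219 bp downstream of the TSS. That region had 3.57 and 3.03 FPM in the stress replicates, against control limits of 2.89 and 3.28.

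Genes of calcium signalling gave 5 of 91 (5.49%), near the 4.09% of all protein-coding genes, so the count is not read as a result about the family. All 5 were expected at both control depths. CIPK15, a kinase bound by calcineurin B-like sensors, had the most signal, 16.1 and 18.2 FPM in the stress replicates, against control limits of 11.8 and 12.7, with a control peak 518 bp away. The calmodulin-like genes CML38 and AT1G76640 lie side by side and both had one, with 15 and 11.9, against 10.2 and 10.9, at CML38, and 12.7 and 12.3, against 8.32 and 9.07, at AT1G76640. CML37 had 6.82 and 6.81, against 5.88 and 6.41, and CBL2, a vacuolar calcium sensor, had 5.70 and 5.79, against 4.44 and 4.85.

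Genes of the abscisic acid and osmotic responses were counted in separate lists, beside the 4.09% over all protein-coding genes, and differences from it were not tested. None of 49 genes of abscisic acid signalling and none of 18 osmolyte genes was, while 27 and 9 of them were at regions in all 4 libraries. Of 107 genes for dehydrins, LEA, RD29, COR and KIN proteins, which protect cells in drying, 5 (4.67%) were at stress-only regions and 23 at regions in all 4 libraries. LTI78 had 3.26 and 2.88 FPM in the stress replicates, against control limits of 2.89 and 3.28, so its values straddled the limits. Its region, chr5:21240534-21241163, covered 233 of the 300 bases of the printed promoter, the 3 ACCGAC matches included. Of 100 heat shock proteins and factors, 1 was at a stress-only region, HSP70 (AT3G12580) with 6.95 and 7.27, against 5.55 and 6.10.

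Among enzymes of specialised metabolism and transporters, the shares at stress-only regions lay on both sides of the 4.09% over all genes, and their differences were not tested. UDP-glycosyltransferases, which attach sugars to hormones and other small molecules, gave 8 of 134 (5.97%), with 7 of the 8 expected at both control depths. UGT85A1 had 15.9 and 14.7 FPM in the stress replicates, against control limits of 7.77 and 8.44, and UGT74E2, known to act on indole-3-butyric acid, had 8.26 and 6.53, against 4.77 and 5.32. Cytochromes P450 gave 15 of 256 (5.86%), with 8 expected at both control depths, led in signal by CYP705A12 with 13 and 12.9, against 7.43 and 8.13. ABC, DTX and NPF transporters gave 14 of 211 (6.64%), with 10 expected at both control depths and 2 past a fold enrichment of 4, the MATE genes AT2G04090 (4.01 and 4.12 FPM, against 2.44 and 2.81) and AT5G52050 (4.88 and 5.41, against 3.0 and 3.44). UMAMIT6, of a family of amino acid transporters, had 9.26 and 9.96, against 4.88 and 5.32. A control peak 657 bp away touched this gene only at its downstream end. Glutathione S-transferases gave 2 of 50 (4.0%), GSTU5 and GSTU16, and class III peroxidases 1 of 68 (1.47%).

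Immune receptor genes of the NLR type gave 13 of 164 (7.93%), against 4.09% of all protein-coding genes, but only 4 of the 13 were expected at both control depths. Their median stress signal was 2.58 FPM, against 6.65 over all genes at stress-only regions. RPP5, a receptor for downy mildew, had 2.19 and 2.84 in the stress replicates, against control limits of 2.00 and 2.34. Counted only among genes at a region of any kind, 13 of 79 NLR genes had a stress-only region, against 7.9% of all such protein-coding genes. Secreted peptides gave 3 of 86 (3.49%), or 3 of the 23 at a region of any kind. Of these 3, CLE43 was expected at both control depths, with 6.51 and 5.95, against 3.88 and 4.38, whereas PROPEP1, the precursor of a danger signal, had 8.01 and 7.08, against 6.66 and 7.19. Cell wall genes gave 7 of 198 (3.54%), or 7 of the 48 at a region of any kind. Among them were IRX3, a cellulose synthase of secondary walls, with 3.63 and 3.50, against 2.89 and 3.28, and EXPA4, an expansin, with 4.88 and 5.76, against 4.22 and 4.69. SAUR and GH3 genes gave 3 of 89 (3.37%), or 3 of the 28 at a region of any kind. Cysteine-rich and wall-associated receptor kinases gave 1 of 58 (1.72%), or 1 of the 18 at a region of any kind. No gene of the 116 defensins and PR proteins or of the 127 MADS factors was at a stress-only region by the distance of 1 kb to the TSS, although 1 further region had its summit inside the MADS gene AGL66, 1541 bp downstream of the TSS.

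**Figure D5:**
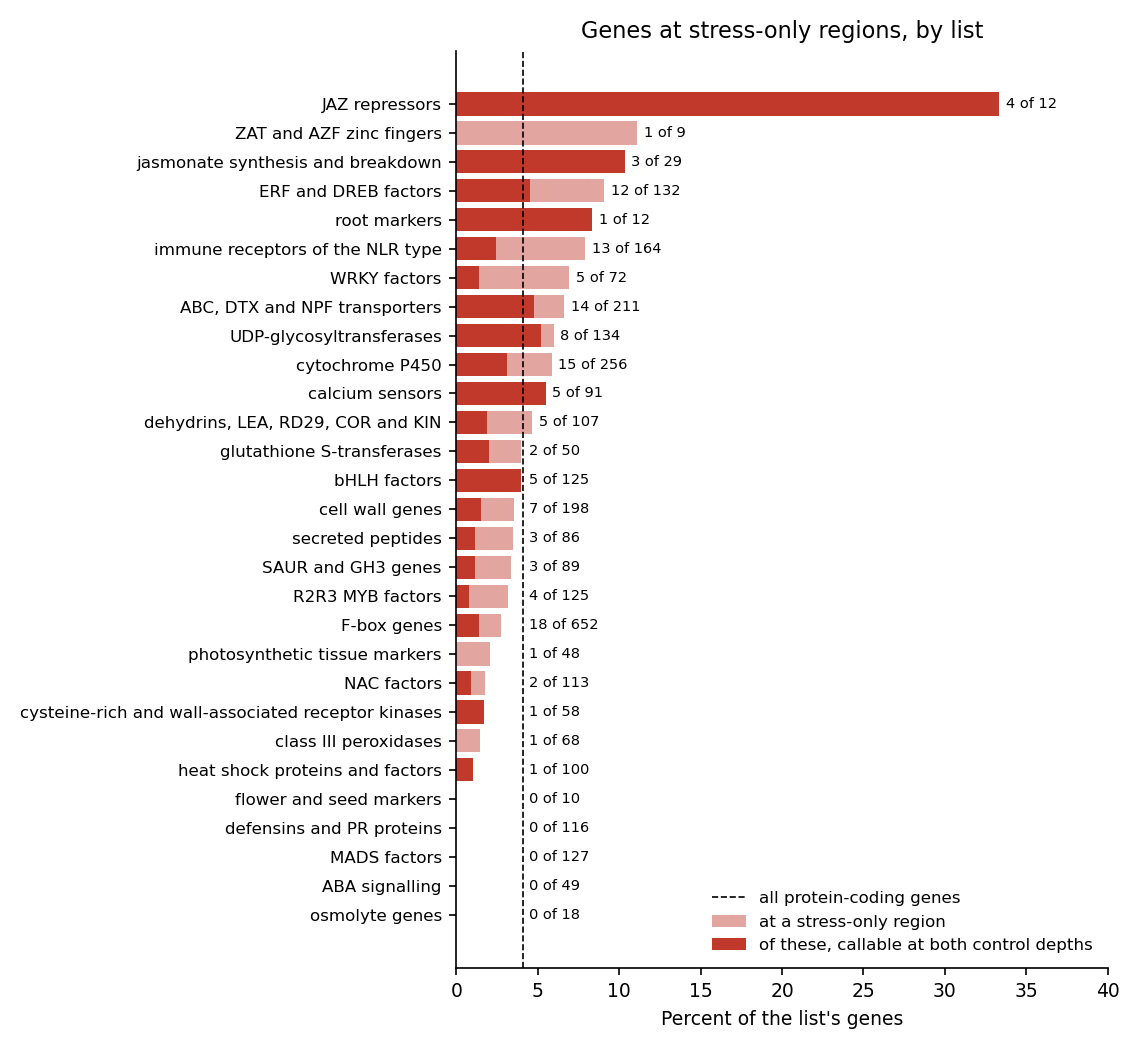
Percent of the genes of each list that were nearest to a stress-only region (pale red, x) and the part of them expected to be called at both control depths (dark red), with the number of genes beside each bar and a dashed line at the 4.09% of all protein-coding genes. JAZ repressors have the longest bar with 4 of 12 genes, and 5 lists, among them abscisic acid signalling, have none. Lists differ in how many of their genes are at a region of any kind, which the bars do not show.

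A family that was in no list, the C1 domain genes, was found by counting annotated product names after the values were seen. These cysteine- and histidine-rich proteins carry zinc-binding domains and are a large plant family of mostly unknown function. Of 151 such genes, 20 (13.2%) were at stress-only regions, against 4.09% of all protein-coding genes, a difference that was not tested. Of the 20, 14 were expected at both control depths. In the family, 49 genes were at regions in all 4 libraries, against 11142 of all 27444 protein-coding genes. At control-only regions there were 0, but only 44 of all protein-coding genes were there, so the 0 is not read as a result. AT1G55700 had 9.51 and 8.24 FPM in the stress replicates, against control limits of 3.66 and 4.06. Its fold enrichments were 5.36 and 5.69, and its signal was 2.18 times the higher control limit, the highest such ratio of the 1324 regions. AT3G27510 had 12.2 and 11.7, against 6.10 and 6.72, and AT3G59130 had 11.2 and 11.0, against 6.21 and 6.72. At the low end, AT1G44030 had 1.19 and 0.856, below both of its control limits of 1.22 and 1.56. Pentatricopeptide-repeat genes, which encode RNA-binding proteins of organelles, had 24 of 261 (9.20%), 19 of them expected at both control depths.

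Some neighbouring genes were both at stress-only regions. Among the 1324 regions, 315 lay within 10 kb of another, in 17 cases 3 in a row, and there were 44 such pairs of neighbouring protein-coding genes. Since 4.09% of all genes were at stress-only regions, some pairs follow from that share alone, and the count is not read as a result about neighbours. In 6 of these pairs both genes had the same product name, and 3 of the 6 were C1 domain pairs: AT1G44020 with AT1G44030, AT1G55390 with EDA11 (AT1G55420), and AT2G02610 with AT2G02620. The other 3 were pairs of berberine-bridge enzyme-like genes (AT1G30720 and AT1G30730), of DUF914 solute carriers (AT3G59310 and AT3G59320) and of alkaline-phosphatase-like genes (AT4G29690 and AT4G29700). AT4G29700 was also nearest to a control-only region. Its summit was at -595 bp from the TSS, with 9.10 and 9.22 FPM in the control replicates, so this gene had peaks of both patterns. Members of such pairs are similar in sequence, so reads may be shared between them, and how multiply mapped reads were treated is not given in the sources used here. Stress-only regions made up 7.24 to 9.02% of the regions of each chromosome.

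Motifs were searched in the promoters of genes at stress-only regions, and their shares lay on both sides of those over all promoters. The G-box CACGTG was in 8.01% of the promoters of the genes at stress-only regions, against 7.68% of all protein-coding promoters of this length and 9.12% of those at regions in all 4 libraries. The W-box cores TTGACC and TTGACT were in 15.2% and 25.9%, against 14.2% and 21.8% of all promoters. ACGTGT was in 11.5%, against 12.4%, ACCGAC in 4.63%, against 5.70%, and GCCGCC, the core bound by ERF factors, in 1.96%, against 2.57%. TGGGCC, an element of many growth genes, was in 11.9%, against 15.5% of all promoters and 22.0% at regions in all 4 libraries. These differences were not tested. TATAAA was in 51.5%, against 52.1% of all promoters. The remaining motifs, with all values counted on both strands and ACGTGT overlapping a G-box in the letters CACGTGT, were GCCGAC (3.12%, against 3.28%), ACGCGT (2.49%, against 2.1%), TGACGT (8.10%, against 9.19%), AAAATATCT (2.58%, against 2.82%) and AAACCCTA (4.27%, against 6.22%). The median GC content of the promoters was 30.7%, against 32.0% over all promoters. A match of letters describes the window and says nothing about binding.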

How the data were processed

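CUT&Tag was done on Col-0 roots, 2 stress and 2 control libraries, and the labels do not say whether these came from separate plantings. According to the submitters' processing notes, the authors used fastp (version 0.19.7), Bowtie2 (version 2.3.5.1) and build TAIR10. Peaks were called per library with MACS 2.2.7.1 per the file headers, with a p cutoff of 1e-05, no input library, all duplicates kept and an effective genome size of 2700000000, which is larger than the Arabidopsis genome. The deposited peak tables give the pileup signal at the summit, the fold enrichment (a ratio, pileup plus 1 over local background plus 1) and −log10 p and q values. The members and lists were chosen with earlier results of these data known.

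Peaks were merged in Python (version 3.11.15, pandas 2.3.3). FPM is the pileup per 1000000 of the library's fragments after filtering, per the file headers. The Poisson −log10 p recomputed from the deposited pileup and background was within 0.00126 for all 56957 peaks. For the lowest callable signal, the mean background in FPM of the stress libraries was scaled to each control depth. Scripts were tested on simulated data. A gene was assigned by the protein-coding TSS nearest to the summit in stress replicate 2, within 1 kb, in RefSeq TAIR10.1. No test was run: peak presence chose the regions, and 2 against 2 libraries give no useful permutation p. Intervals cover counting error only. Alternatives were a stricter q or fold enrichment, other merging, equal depth, other gene assignment and each library left out. Named genes were the first 12 by lower fold enrichment, the first 4 of each list, the longest regions, those with most TSS inside, those next to a fold enrichment of 4 and those with the lowest pileup. JAZ10 by signal, the C1 domain family, RSL1, AT1G55700, PCL1, UMAMIT6, the miRNA genes, further list members and the distance to control peaks were added after the values were seen.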

Additional observations from a re-analysis of the deposited data

How the results depend on the processing

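The number of stress-only regions was 1324 and depended on depth and threshold. With every peak scaled to the depth of the smallest library, 751 regions were stress-only, 720 of which overlapped one of the 1324, while control-only regions numbered 189 in place of 71. At equal depth 17 regions had a fold enrichment of at least 4 in both stress libraries in place of 50, 682 genes were assigned in place of 1123, and 90.8% of summits were within 1 kb of a TSS in place of 84.9%. With only peaks of a fold enrichment of at least 4 in all libraries, 589 regions were stress-only, all of which have that fold enrichment by construction (589), 333 were control-only, 539 genes were assigned and 91.5% of summits were near a TSS. With a −log10 q of at least 10, the stress-only regions rose to 1738 and the genes assigned to 1540, while control-only regions fell to 34. Of these stress-only regions, 117 had a fold enrichment of at least 4 in both stress libraries, and 88.7% of summits were near a TSS. Within 0.5 kb, 68.4% of summits had a TSS.

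Leaving out 1 library at a time gave 1497 to 2353 stress-only regions, 61 to 133 that reached a fold enrichment of 4, 95 to 227 control-only regions, 77.5 to 85.8% of summits near a TSS and 1202 to 2011 genes. The highest number of stress-only regions, 2353, came without control replicate 1, and 2289 came without stress replicate 1. Control-only regions were most numerous, 227, without control replicate 2, and numbered 141 without stress replicate 2. Without the 179 regions that had a control peak within 1 kb, an alternative added after the data were seen, 1145 remained. No paired analysis was possible because the results come from no test. Leaving out a library removes 1 condition of the rule. The counts of stress-only and control-only regions could therefore not fall, and their rise is no check of robustness. The cause of the other shifts was not tested. Where a stress signal was near the lowest callable signal, a difference from control was not detectable at the control depth.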
